A study of Rattus norvegicus with 35 samples.

Results

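The olfactory epithelium of 4 adult rats aged 9 weeks (rats 13 to 16) was set against that of 4 old rats aged 22 months (rats 17 to 20), all of them Brown Norway males. Each rat gave RNA from both sides of the nose, and each side, A or B, was hybridised to an array of its own. The 8 rats were chosen by their labelled age alone, and they hold 16 of the 35 arrays and 8 of the 27 rats of the series, whose other animals were newborn pups. The question was which transcripts of this tissue differ between young adulthood and old age. The old rats had lived in the animal house since they were young, so that age and a long stay there come together.

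The olfactory epithelium holds mature olfactory sensory neurons, each of which expresses 1 olfactory receptor (OR) gene, the immature neurons that follow from the division of globose basal cells, quiescent horizontal basal cells, and sustentacular cells, which are rich in enzymes that metabolise odorants and toxins. Bowman's glands secrete the mucus, and patches of ciliated respiratory epithelium lie beside it. The sheet is attached to thin turbinate bone, which osteoblasts lay down and osteoclasts resorb, so that a dissected sample can carry bone and marrow.

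Each of 41012 probes was read as the processed intensity of its spot divided by the median of its array, as a log2 value. The A and B arrays of a rat were averaged, and all levels are on this scale. The brightest gene of a list is the one whose probe had the highest mean level over both ages; probes bind unequally, so this does not rank mRNA amounts. A transcript counted as expressed at an age where it was above background on at least 6 of the 8 arrays. The number expressed was 26096 in the adult and 25676 in the old rats, and 10431 and 11258 probes were above background on no array of that age. Both ages expressed 24630 transcripts, and these were tested with limma. A transcript is called where the Benjamini-Hochberg adjusted p was under 0.01.

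The labelled tissue was checked against markers of its cell types. Omp, Gnal, Adcy3 and Cnga2 of mature neurons, Gap43, Gng8, Dcx and Stmn2 of immature neurons, Neurog1 and Neurod1 of globose basal cells, Krt5 and Krt14 of horizontal basal cells, Cyp2g1 and Ugt2a1 of sustentacular cells, Aqp5 and Scgb1c1 of glands, and Foxj1, Dnai1 and Tekt1 of ciliated cells were all expressed at both ages. Several defining markers of other cells were not well above background: S100b of glia, Cd163 of macrophages and Plin1 of adipocytes on no array at either age, and Jchain of B and plasma cells, Pecam1 of endothelium, and Acta1, Ckm and Myh4 of muscle on at most 2 of 8 arrays at each age. The RNA came from whole tissue, so fewer cells of a type and less RNA per cell cannot be told apart here.

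Of the 24630 transcripts tested, 11906 (48.3%) were called, 8001 of them higher in old rats (32.5%) and 3905 lower (15.9%). Few of these were large: 32 transcripts (0.13%) were called and at least 5-fold higher in old rats, and 58 (0.235%) at least 5-fold lower. The median transcript lay 0.18 higher in old rats on the log2 scale. Changes are therefore given relative to that median, as old minus adult. The adjusted p and the counts of calls at least 5-fold higher or lower rest instead on the change as measured. A change is named consistent where the transcript was called, the 4 adult and 4 old rats did not overlap and the relative change was at least 1.5-fold. The groups did not overlap for 13957 transcripts (56.7%). Consistent changes of any size numbered 3607 higher (14.6%) and 3657 lower (14.8%). Those from 1.5-fold to 5-fold, with both limits on the relative change, numbered 3587 higher (14.6%) and 3578 lower (14.5%). Centring on the median transcript favours such a balance, so it is no result of its own. Nearly all consistent changes were under 5-fold.

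The larger number of calls higher in old rats depended on how the arrays were scaled. With array medians 67.2% of the calls were higher, with the 75th percentile 59.0%, with the median of transcripts seen on all 16 arrays 62.5%, with quantile normalization 51.0% and with normexp followed by quantile normalization 50.7%. The shift was carried by transcripts with bright probes. When the transcripts were split by mean level into 4 bins of equal size, the median relative change of the top bin was 0.26, with 23.5% consistently higher and 4.3% lower, whereas that of the bin next to the lowest was −0.20, with 10.4% and 22.6%. With quantile normalization the medians of those bins were 0.01 and −0.02, and consistent changes over all transcripts numbered 3144 higher (12.8%) and 3599 lower (14.6%). For this reason each gene group below is given with its median under both scalings. The arrays differed in brightness as well: the median intensity was 135, 142, 94.3 and 91.4 in adult rats 13 to 16, and 51.6, 40.1, 41.0 and 44.8 in old rats 17 to 20. Adult rats 15 and 16 lay on slide 1 and were scanned on day 1, adult rats 13 and 14 on slide 2 and day 2, and the old rats on slides 4 and 5 and day 3, with a later release of the extraction software. Age cannot be told apart from scan day, slide or software release. Within the adults, slides 1 and 2 differed by more than 1 on the log2 scale for 604 transcripts (2.45% of those tested), among them 12 of the 58 that were 5-fold lower and 11 of the 32 that were 5-fold higher in old rats. Between the slides of the old rats 127 transcripts (0.516%) differed that much.

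Genes of bone formation were prominent among the falls in old rats. Ibsp, Dmp1, Alpl, Smpd3 and Col1a1 held 5 of the 10 largest consistent falls, counted by probe among genes that have a symbol. Of 24 genes of osteoblasts and bone matrix with a probe, 19 were tested, 14 fell consistently and none rose, against the 14.8% of all transcripts that fell consistently. Their median change was −1.78, and −1.97 with quantile normalization. This list, like the others, was chosen with earlier results of these data known, so the comparison with all transcripts only describes it. Ibsp, which encodes bone sialoprotein (chr14:6549186-6549245 on the rn3 build, minus strand), stood at 7.83, 8.41, 7.91 and 9.16 in adult rats 13 to 16 and at 4.64, 3.84, 4.47 and 4.05 in old rats 17 to 20. It fell by 4.26 (SE 0.29), 19.1-fold, with an adjusted p of 7.62e-06, and every old rat lay below every adult. Dmp1, a matrix protein of osteocytes that neighbours Ibsp on the chromosome (chr14:6637483-6637542, minus strand), read 4.55, 5.21, 5.19 and 5.77 in adults and 1.78, 0.41, 1.84 and 1.47 in old rats, a change of −3.99. Alpl, the tissue-nonspecific alkaline phosphatase that frees phosphate for mineral (chr5:156511780-156511839, minus strand), read 4.23, 4.82, 3.58 and 4.41 in adults and 0.88, −0.07, 0.76 and 0.25 in old rats, also a change of −3.99 (SE 0.28, adjusted p 8.47e-06). That neither these genes nor Ibsp overlapped between the ages follows from their choice among the consistent falls.

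Further members of the bone group fell by less, and some were not called. Smpd3, a sphingomyelinase needed for mineralisation, changed by −3.73, the matrix glycoprotein Mepe by −3.02, osteopontin (Spp1) by −2.87, osteomodulin (Omd) by −1.98, the growth factor Bmp3 by −1.78, and osteoprotegerin (Tnfrsf11b), a decoy that restrains osteoclasts, by −1.55. Col1a1, the main collagen chain of bone (chr10:83652273-83652332, plus strand), read 9.5, 10.07, 9.67 and 10.41 in adults and 7.15, 6.09, 6.37 and 5.96 in old rats, and fell by 3.70 on the log2 scale (adjusted p 1.12e-05). Its partner chain Col1a2 changed by −1.73. Sparc, the brightest gene of the group over both ages, changed by −1.38. The mature osteoblast hormone osteocalcin (Bglap) was not called, at 9.05, 9.66, 8.94 and 9.58 against 8.86, 8.0, 8.82 and 8.54 (−0.94, adjusted p 0.0153), and here too the adults lay above the old rats. The master regulator Runx2 was low at both ages and not called (0.72), like Dlx5 (−0.57), Msx2 (0.16) and Pth1r (−0.87). The summed level of the group, as multiples of the array median, was 4370, 6590, 4260 and 7040 in adults and 1980, 1180, 1650 and 1330 in old rats. Sp7, another regulator of osteoblasts, was above background on 3 of 8 adult arrays and on no old array, and Phex, an osteocyte peptidase, on 7 and none.

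Most genes of bone-resorbing cells fell as well. Of 15 osteoclast genes with a probe, 11 were tested and 8 fell consistently (7 with quantile normalization), with a median of −0.90 under both scalings and −0.49 with normexp, where 5 fell, while Ostm1 and Car2 were called higher (0.58 and 0.32). Ctsk, the collagen-degrading protease cathepsin K (chr2:190368355-190368414, plus strand), showed the largest fall of any named gene, from 5.26, 5.96, 4.63 and 5.77 in adults to 1.02, −0.40, 1.11 and −0.38 in old rats. It fell by 5.25 (SE 0.42), 38.2-fold, with an adjusted p of 1.36e-05. The gelatinase Mmp9 read 3.61, 4.64, 4.07 and 4.96 in adults and 2.58, 1.28, 2.16 and 1.65 in old rats (−2.59). Acp5, the tartrate-resistant acid phosphatase and the brightest osteoclast gene, read 8.81, 9.53, 9.05 and 9.83 against 8.05, 7.53, 8.01 and 7.37 (−1.74). For both genes the lowest adult exceeded the highest old rat. Tnfrsf11a, the receptor RANK, changed by −1.07, the chloride transporter Clcn7 by −0.90 and the proton pump subunit Atp6v0d2 by −0.88, while the pump subunit Tcirg1 gave −0.06 and was not called. Calcr, the calcitonin receptor, and the integrin Itgb3 were above background on 7 of 8 adult arrays each and on no old array. Ocstamp, which acts in osteoclast fusion, was above background on 8 adult arrays and 1 old array. The summed level was 622, 973, 716 and 1170 in adults and 430, 352, 417 and 342 in old rats. Among the adults, rats 14 and 16 held the most of both bone groups.

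**Figure D1:**
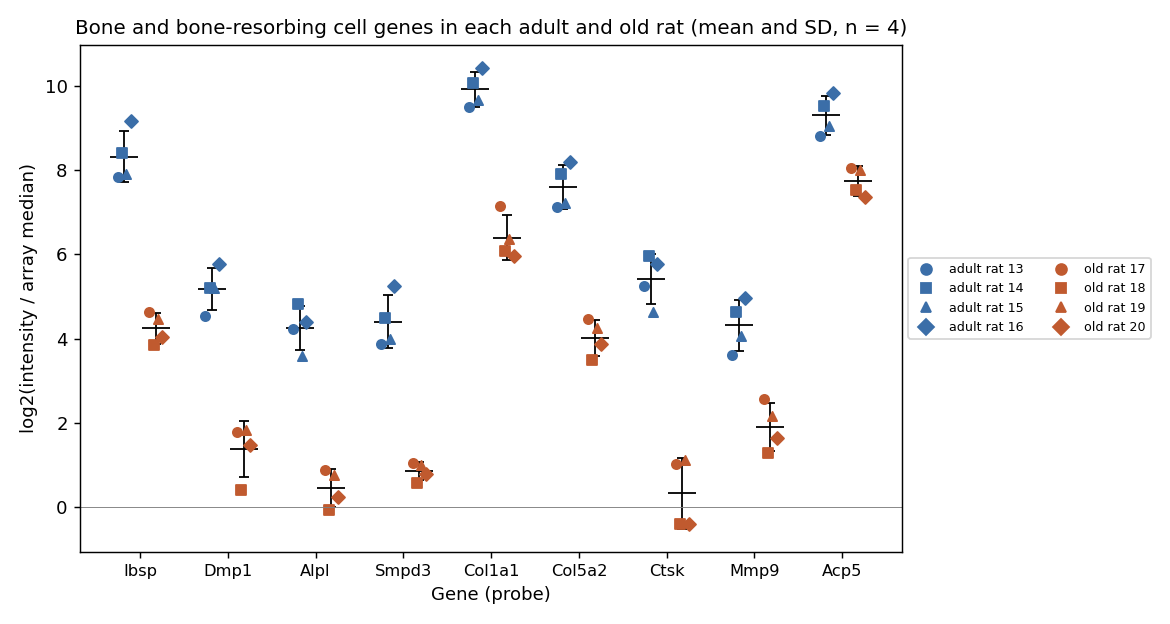
Levels of bone and bone-resorbing cell genes in each adult (blue) and old (orange) rat, as log2 of intensity over the array median; each point is a rat (mean of its A and B arrays), and black marks give the mean and SD of 4 rats. Adult and old rats do not overlap for any of the 9 genes, nor for 56.7% of all transcripts tested. Apart from Mmp9 and Acp5, the genes were picked among changes without overlap, so this was fixed by their choice. Ctsk lies furthest apart (relative change −5.25).

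Many collagen genes fell beside the bone genes. Of 20 collagen genes with a probe (those of bone and cartilage apart), 17 were tested, 10 fell consistently and 1 rose, with a median of −1.30 (−1.21 with quantile normalization and −0.74 with normexp). Col5a2, a chain of the collagen V that nucleates fibrils (chr9:44376914-44376973, minus strand), read 7.12, 7.90, 7.23 and 8.19 in adults and 4.47, 3.49, 4.25 and 3.88 in old rats, and fell by 3.77, 13.7-fold. Its partner Col5a1 changed by −3.08, Col12a1 by −2.73, Col6a1 by −2.04 and the basement membrane chains Col4a5 and Col4a2 by −1.38 and −1.0. Col3a1, the brightest, read 7.27, 8.20, 7.55 and 8.34 against 5.89, 4.76, 5.61 and 5.42 (−2.60). The exception was Col7a1, the chain of anchoring fibrils beneath stratified epithelium, which rose by 0.66. The summed level was 495, 834, 562 and 960 in adults and 208, 147, 196 and 178 in old rats.

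A smaller share of the matrix glycoproteins and crosslinking enzymes changed consistently. Of 35 with a probe, 32 were tested, 13 fell consistently and 1 rose, with a median of −0.60 (quantile −0.70). Lysyl oxidase (Lox), which crosslinks collagen, changed by −1.93 and its relative Loxl2 by −2.18, the collagen chaperones Serpinh1 and Fkbp10 by −1.79 and −2.36, periostin (Postn) by −2.32, lumican (Lum) by −1.84 and fibronectin (Fn1) by −1.70. Thrombospondins went both ways: Thbs2 changed by −2.61, whereas Thbs4 rose from 6.63, 7.01, 6.52 and 6.82 to 9.06, 7.90, 9.12 and 8.82 (1.80). The brightest gene, biglycan (Bgn), was called at −0.98, but not without rats 14, 18 or 20 (−0.92, −0.86 and −0.93). The summed level of this group overlapped between the ages, at 1630, 2270, 1740 and 2590 against 2110, 1310, 1940 and 1750. Of 18 matrix proteases and inhibitors with a probe, 12 were tested, 6 fell consistently and 2 rose (median −1.03, quantile −1.13). Mmp13, the collagenase of bone and cartilage, read 7.44, 8.63, 8.05 and 8.87 against 6.13, 5.17, 5.77 and 6.16 (−2.63), Adamts2, which trims procollagen, changed by −1.95 and the membrane protease Mmp14 by −1.81. The inhibitor Timp3 rose by 0.88, and Timp2, the brightest, by 0.66, but Timp2 gave 0.16 and was not called with quantile normalization. The summed level was 658, 1040, 820 and 1180 in adults and 821, 711, 729 and 771 in old rats.

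Cartilage genes rose and fell consistently about as often as all transcripts did (14.6% and 14.8%), while their summed level was lower in old rats. Of 19 with a probe, 16 were tested, 3 fell consistently and 2 rose, with a median of −0.10 (quantile −0.02, normexp −0.04) that ran from −0.18 to −0.04 as single rats were left out and was 0.00 against the adults of slide 1. Col11a1 and Col11a2, minor fibril chains, changed by −3.03 and −2.68. The defining chondrocyte collagen Col2a1 was not called (−0.54, adjusted p 0.0142), and Acan, the aggrecan core protein, was above background on 8 adult and 3 old arrays. Epyc rose by 1.09. The probes of Col9a1 opposed each other, at 1.47 for the brighter and −2.55 for another. Comp was called at −1.35 but not without rats 14, 16, 18, 19 or 20 (−1.25, −1.14, −1.12, −1.38 and −1.35). The summed level of the group was 209, 288, 213 and 370 in adults and 137, 137, 141 and 157 in old rats, and Col9a2 was its brightest gene over both ages, though not in adults alone, where Col11a2 was brighter.

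Antibody transcripts showed the largest rise of any family examined. Of 97 probes described as rat immunoglobulin chains, a family chosen after values were seen, 8 were expressed at both ages; 7 of these were called higher and 6 rose consistently, with a median of 3.05 (quantile 2.94, normexp 2.71). A probe for an immunoglobulin gamma-2B constant region read −2.31, −1.89, 2.65 and 0.02 in adults and 3.90, 4.40, 4.64 and 3.33 in old rats, and rose by 4.27, 19.3-fold (adjusted p 0.00244). A kappa light chain probe read 2.53, 3.42, 6.01 and 4.19 in adults and 7.56, 7.72, 8.11 and 6.63 in old rats (3.29), and an alpha heavy chain probe rose by 2.53. These 3 probes were lower on slide 2 than on slide 1 of the adults, by 3.44, 2.12 and 1.47. Adult rat 15 held the highest level among adults for each of these probes, and for another kappa constant region probe it lay above old rat 20 (4.76 against 4.69). The size of the gamma-2B and kappa rises therefore depends on rat 15, whose level raises the adult mean. The alpha heavy chain probe read 0.17, 1.85, 2.66 and 2.30 in adult rats 13 to 16, with rat 13 furthest from the other adults. Of 3 probes named only by partial likeness to a human chain, 1 was called higher and 1 lower (−1.77).

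The other genes of B and plasma cells were dim. Of 13 with a probe 4 were tested and limma called none of them, and the defining Jchain was above background on at most 2 of 8 arrays at each age. The median of the 4 was 0.07 (quantile 0.25), and −0.04, −0.01 and −0.04 without adult rats 13, 14 and 16, 0.38 without adult rat 15, 0.13, 0.03 and 0.33 without old rats 17, 19 and 20, −0.18 against the adults of slide 1 alone and 0.37 against those of slide 2. The summed level was 3.2, 3.49, 8.52 and 3.57 in adults and 5.16, 7.02, 7.74 and 4.47 in old rats, with Fcrla the brightest, so adult rat 15 exceeded all the old rats; Fcrla was called only without rat 15 (0.49).

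Genes of T and NK cells rose in part. Of 30 with a probe, 16 were tested, 6 rose consistently and 1 fell, against 14.6% and 14.8% of all transcripts, with a median of 0.80 (quantile 0.91, normexp 0.42); against the adults of slide 1 the median was 0.54, with 4 rising and 2 falling, and against those of slide 2 it was 1.13, with 11 and none. This list too was chosen with earlier results of these data known, so the shares only describe it. Cd8b, the coreceptor chain of cytotoxic T cells, read −0.90, −1.01, 0.37 and −0.88 in adults and 1.72, 1.52, 1.34 and 1.47 in old rats (1.93, adjusted p 0.000144). Cd3g, a chain of the T cell receptor complex and the brightest of the group, read 4.21, 4.26, 4.77 and 4.60 against 5.31, 5.48, 5.37 and 5.24 (0.71). The inhibitory receptor Ctla4 rose by 1.86. Adult and old rats did not overlap for these genes. Cd3d, another chain of the complex, overlapped: adult rat 15 stood at 2.84 and the other adults at 1.02, 1.15 and 1.19, against 3.03, 3.16, 3.17 and 2.44 in old rats. It was called at 1.22, but among the fits that leave out a rat only in the one without adult rat 15; without rats 13, 14, 16, 17, 18, 19 and 20 it gave 1.05, 1.1, 1.09, 1.17, 1.15, 1.13 and 1.42. The third chain, Cd3e, was above background on 2 adult and 6 old arrays. The summed level of the group was 47.2, 52.1, 101 and 64.4 in adults and 112, 121, 119 and 115 in old rats, and its median was 1.0 without adult rat 15.

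The medians of the antigen presentation lists depended on adult rat 15. Of 10 genes of MHC class II with a probe, 7 were tested and 1 rose consistently, with a median of 0.68 (quantile 0.66), 0.12 against the adults of slide 1, which hold rat 15 (1 rising), 1.38 against those of slide 2 (6 rising), and 1.11 without rat 15. The gene was RT1-DMa, which loads peptides, at 5.24, 5.30, 6.18 and 5.43 in adults and 7.06, 6.98, 6.92 and 7.07 in old rats (1.29, adjusted p 0.000134). Cd74, the invariant chain and the brightest, read 7.24, 7.69, 9.27 and 8.29 against 9.10, 8.69, 8.94 and 8.75. It overlapped and was not called (0.56), and was called without adult rat 15 (0.92). The class II genes summed to 309, 386, 1190 and 560 in adults and 1090, 881, 1040 and 947 in old rats. Of 37 genes of the interferon response and MHC class I with a probe, 29 were tested and 3 rose consistently, none of them with quantile normalization. Their median was 0.25 (quantile 0.21, normexp 0.10), but −0.28 against the adults of slide 1 (2 rising) and 0.80 against those of slide 2 (15 rising), 0.77 without adult rat 15, and 0.03, 0.12 and 0.11 without adult rats 13, 14 and 16. B2m, the light chain of class I and the brightest, read 7.96, 8.31, 9.05 and 8.49 against 9.98, 9.82, 9.95 and 9.86 (1.26) without overlap, or 0.72 with quantile normalization. The interferon and class I genes summed to 991, 1100, 2600 and 1220 in adults and 2550, 2310, 2530 and 2520 in old rats.

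Macrophage genes went both ways. Of 26 with a probe, 21 were tested, 9 rose consistently and 2 fell, with a median of 0.41 (quantile 0.13, with 7 and 2; normexp 0.22, with 6 and 2; 0.24 without adult rat 13, 0.17 against the adults of slide 1, with 7 and 2, and 0.68 against those of slide 2, with 12 and 2). Adgre1, the macrophage marker of the adhesion receptor family, read 1.75, 1.76, 1.89 and 1.98 in adults and 3.35, 3.45, 3.05 and 3.67 in old rats (1.35, adjusted p 1.58e-05). The lectins Mrc1 and Clec10a, marks of resident macrophages of the alternative type, changed by −1.80 and −1.71. The macrophage genes summed to 435, 551, 690 and 674 in adults and 1130, 865, 952 and 900 in old rats. The brightest gene, Laptm5, was called at 0.28 but gave −0.06 with quantile normalization and −0.23 with normexp, and lost the call without rats 14, 17, 18, 19 or 20 (0.28, 0.28, 0.30, 0.27 and 0.29). Of 31 complement genes with a probe, 22 were tested, 6 rose consistently and 1 fell. The complement median was 0.14 (quantile 0.08, normexp 0.07), −0.02 against the adults of slide 1, 0.40 against those of slide 2, −0.01 without adult rat 13, 0.06 without old rat 17 and 0.26 without adult rat 15. The 3 chains of C1q rose: C1qb read 5.96, 5.93, 6.41 and 5.94 against 7.41, 7.32, 7.12 and 7.88 (1.19), and C1qa and C1qc rose by 1.02 and 1.11. Factor D (Cfd) rose by 1.07. C3, the central component and the brightest, read 6.63, 6.99, 8.70 and 7.46 against 8.83, 8.36, 9.33 and 8.34; it was not called (1.09), and was called without adult rat 15 (1.48). The complement genes summed to 1010, 1170, 1790 and 1460 in adults and 2530, 2180, 2500 and 2330 in old rats.

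**Figure D2:**
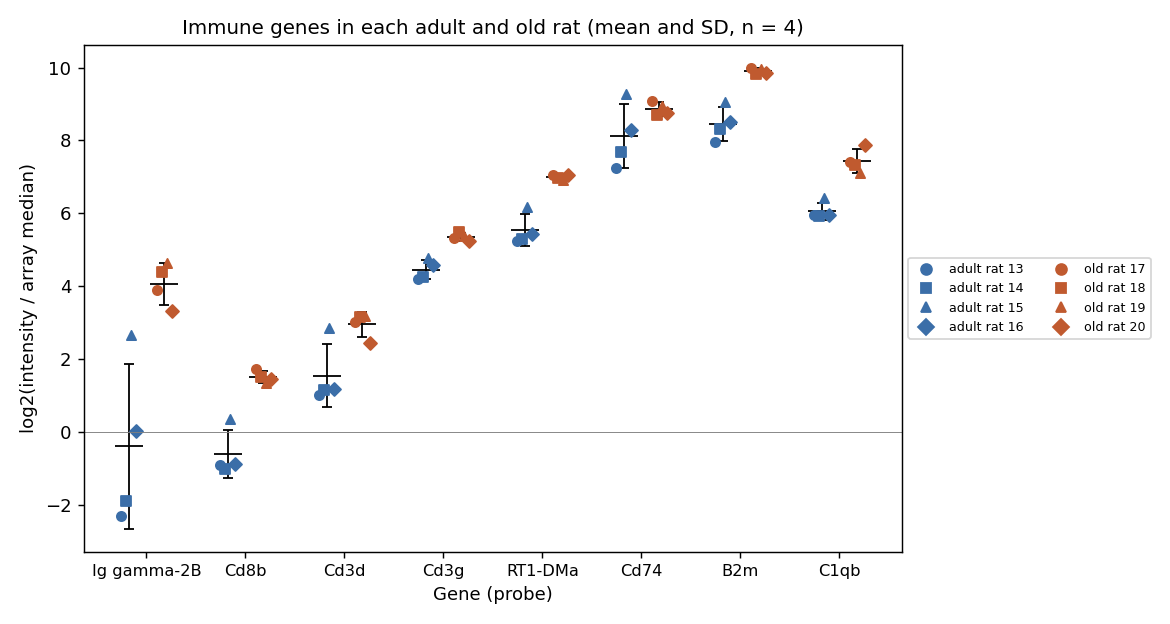
Levels of immune genes in each adult (blue) and old (orange) rat, as log2 of intensity over the array median; each point is a rat (mean of its A and B arrays), and black marks give the mean and SD of 4 rats. Adult rat 15 (blue triangle) is the highest adult for all 8 probes and overlaps the old rats for Cd3d and Cd74.

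Of 38 chemokines and receptors with a probe, 22 were tested, 5 rose consistently and none fell (median 0.31, quantile 0.35; 0.55 without adult rat 15, 0.16 without old rat 17, 0.51 without old rat 18 and 0.67 against the adults of slide 2). Cxcl14, an epithelial chemokine, read 5.06, 4.98, 4.82 and 4.97 in adults and 6.41, 6.68, 6.62 and 6.67 in old rats (1.45, adjusted p 5.05e-06), and the platelet chemokine Pf4 rose by 1.99. Cx3cl1 was the brightest, and the summed level was 223, 234, 289 and 242 against 540, 415, 499 and 428. Of 18 neutrophil genes with a probe, 8 were tested and 1 rose consistently, with a median of 0.51 (quantile 0.69; 0.30 without adult rat 13, 0.15 without old rat 17, 0.77 without old rat 20 and 0.27 against the adults of slide 1). The alarmin S100a9 was not called and varied widely among old rats, at 5.37, 2.04, 3.86 and 1.85 against 0.84, 1.44, 2.30 and 1.83 in adults. The summed level, with Lcn2 the brightest, was 45.0, 62.3, 112 and 66.7 in adults and 219, 91.8, 215 and 110 in old rats. The largest sums were those of old rats 17 and 19. Lcn2 was called at 1.20, but not without rats 13, 14, 16, 17, 19 or 20 (1.04, 1.16, 1.14, 1.08, 0.96 and 1.33). Of 12 mast cell genes with a probe, 9 were tested, 2 rose consistently and the median was 0.08 (quantile 0.18; −0.06 and 0.27 against the adults of slides 1 and 2, −0.09 without adult rat 13 and −0.04 without old rat 20). The tryptase Tpsb2 read 0.41, 0.36, 0.40 and 0.71 in adults and 2.93, 2.76, 2.61 and 3.28 in old rats and rose by 2.24, 4.72-fold, whereas the carboxypeptidase Cpa3 was not called (−0.31). The brightest probe was shared by Mcpt1 and Mcpt2, and the summed level overlapped, at 143, 161, 200 and 192 against 154, 148, 142 and 217.

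Genes of mature olfactory neurons held near the median of all transcripts. Of 24 with a probe, 23 were tested, 2 rose consistently and 1 fell, with a median of 0.00 that became −0.29 with quantile normalization and −0.25 with normexp, 0.15 and −0.09 against the adults of slides 1 and 2, and −0.10 without adult rat 16. Omp, the olfactory marker protein, read 7.85, 7.45, 7.64 and 7.32 in adults and 8.22, 8.30, 8.02 and 8.50 in old rats; it was called (0.51, adjusted p 0.00187; 0.14 with quantile normalization). Of the transduction genes, the cyclase Adcy3 gave 0.08 (−0.25 with quantile normalization), the channel subunit Cnga2 0.19 (−0.25) and the G protein Gnal 0.03 (−0.47), and none was called; Gnal gave −0.05 without adult rat 16 and −0.02 without old rat 20. Stoml3, a stomatin of olfactory cilia, and Slc24a4, an exchanger that extrudes calcium, rose by 0.97 and 0.95 without overlap, but Stoml3 was not called with quantile normalization (0.44), and the transcription factor Ebf2 changed by −0.99. The brightest gene, Gnb1, was at 0.32 and at −0.35 with quantile normalization. The mature neuron genes summed to 3940, 3330, 3700 and 3140 in adults and 4680, 5300, 4370 and 5530 in old rats.

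Counts of detected ORs overlapped between adult and old rats, while the levels of the ORs detected were more often higher in old rats. Of 1113 OR probes, 710, 723.5, 722.5 and 631 were above background in adult rats 13 to 16 (means of A and B arrays) and 697.5, 749.5, 729 and 734 in old rats 17 to 20. The means were 697 ± 44.3 and 728 ± 21.8 (SD, n = 4), and the difference of 30.8 gave an exact two-sided permutation p of 0.286; without adult rat 16 it was 8.83. Of the 608 OR probes tested, 300 were called higher and 14 lower, against 32.5% and 15.9% of all transcripts, and 219 rose and 14 fell consistently, with a median of 0.48 (0.61 with quantile normalization and 0.30 with normexp). The largest rises lay in 2 stretches of chromosome 5. Olr837 (chr5:60267074-60267133) read 3.09, 1.63, 2.28 and 0.50 in adults and 4.16, 4.81, 4.16 and 4.69 in old rats (2.40, adjusted p 0.000965). Olr839 (chr5:60301933-60301992) rose by 2.42 and Olr841 (chr5:70028921-70028980) by 2.61, both picked among changes without overlap. The adult slides differed by 1.23 for Olr839 and by 2.16 for Olr844. Olr844 (chr5:70091299-70091358) was called at 2.69 but spread from 0.00 to −4.31 in adults and lost the call without rats 14, 15, 17, 18, 19 or 20 (2.79, 2.75, 2.80, 2.50, 2.72 and 2.73). Its lowest adult value was that of rat 16, against −1.65 and −1.64 in rats 14 and 15. The size of this rise therefore depends on rat 16. That rat was also the lowest adult for Olr837, Olr839 and Olr841 (0.50, −2.19 and −2.14). The median of the OR family is given here with all rats only. Chosen after their values were seen, Olr834 and Olr847, which start at 60190907 and 70186955 of the same chromosome, rose by 2.26 and 2.02, the latter with adult slides 1.48 apart, and the largest falls were those of Olr1690 (−1.91, on chromosome 20), Olr633 (−1.56), Olr766 (−1.54) and Olr1291 (−1.53).

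Immature neurons and dividing cells went the other way. Of 29 genes of immature olfactory neurons with a probe, 27 were tested, 10 fell consistently and 1 rose, with a median of −0.57 under both scalings; the median was −0.35, with 5 falling and 2 rising, against the adults of slide 1 and −0.62, with 11 and 1, against those of slide 2. Gap43, a protein of growing axons, read 8.04, 7.79, 8.18 and 7.96 in adults and 7.16, 7.42, 7.24 and 7.53 in old rats (−0.84, adjusted p 0.000904), and Gng8, a G protein subunit of immature neurons, changed by −0.68. Adult and old rats did not overlap for either gene. Tmsb10, an actin-binding thymosin (chr4:106530521-106530580, minus strand), changed by −2.72, from 5.43, 5.38, 3.79 and 3.78 to 2.23, 2.12, 2.03 and 1.88, but its adult slides differed by 1.62. Elavl3, an RNA-binding protein of neurons, read 7.17, 6.77, 5.54 and 5.31 against 4.82, 4.63, 4.76 and 4.57 (−1.69); its adult slides differed by 1.54, and the call was lost without rats 14, 17, 18, 19 or 20 (−1.48, −1.74, −1.67, −1.72 and −1.61). Stmn2 was not called (0.04, −0.37 with quantile normalization). The summed level, with Stmn1 the brightest, overlapped, at 2700, 2820, 3020 and 2540 against 2430, 2630, 2340 and 2840.

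Of 18 genes of globose basal cells and neurogenesis with a probe, 15 were tested, and 3 rose and 3 fell consistently, with a median of 0.15 that turned to −0.02 with quantile normalization and with normexp and was 0.09 without adult rat 16 and 0.07 against the adults of slide 2. Among all transcripts 14.6% rose and 14.8% fell consistently. Single members of the group went either way. Neurog1 read 2.34, 2.26, 2.47 and 2.15 in adults and 1.23, 1.43, 1.26 and 1.46 in old rats (−1.15), and Neurod1 read 3.43, 3.25, 3.62 and 3.29 against 2.38, 2.17, 2.08 and 2.61 (−1.27), both without overlap. Hes5, a Notch target, rose by 1.27 and the stem cell factor Sox2 by 0.63 (0.38 with quantile normalization). The probes of Sall3 differed, at 1.74 and −0.47. Hes6 was the brightest (0.27, and −0.07 with quantile normalization), and the summed level was 580, 514, 609 and 555 against 680, 709, 666 and 778. Of 34 cell cycle genes with a probe, 30 were tested, 19 fell consistently and none rose, with a median of −0.83 (quantile −0.72, with 16 falling; normexp −0.53, with 12). Cenpf, a kinetochore protein, read 0.70, 0.13, 0.87 and 0.59 in adults and −1.27, −1.42, −1.29 and −1.04 in old rats (−2.01), Prc1, which bundles spindle microtubules, changed by −1.76 and the mitotic kinase Ttk by −1.39. The probes of Rrm2, a subunit of ribonucleotide reductase, gave −1.43 and 0.16. The summed level, with Aurkb the brightest, was 271, 277, 347 and 364 in adults and 242, 221, 234 and 257 in old rats, with no overlap.

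Genes of horizontal basal cells, the reserve stem cells, rose about as often as all transcripts did. Of 13 with a probe, 12 were tested, 2 rose consistently and 1 fell (median 0.26; 0.12 with quantile normalization, with 1 and 1; 0.04 with normexp; 0.15 against the adults of slide 1). Krt14 read 7.45, 7.45, 7.55 and 7.70 in adults and 9.04, 9.02, 8.72 and 8.74 in old rats (1.16, adjusted p 1.23e-05), and its partner Krt5 rose by 0.62, or by 0.42 with quantile normalization, under 1.5-fold. The summed level, with Krt14 the brightest, was 585, 620, 654 and 866 against 1270, 1230, 1060 and 1020.

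Sustentacular genes rose in number, but most of these calls depended on the scaling. Of 29 with a probe, 26 were tested, 13 rose consistently and 2 fell, with a median of 0.59; with quantile normalization 3 rose and 2 fell, and the median was 0.29 (0.22 with normexp). Cyp2f4, a cytochrome P450 and the brightest, read 11.55, 11.45, 11.40 and 11.41 in adults and 12.48, 12.74, 12.63 and 12.68 in old rats (0.99, adjusted p 8.43e-06; 0.65 with quantile normalization). Gstp1, a glutathione transferase, read 6.09, 6.10, 6.43 and 6.32 against 8.04, 8.0, 7.91 and 8.09 (1.59, 3.01-fold; 1.28), and the olfactory glutathione peroxidase Gpx6 rose by 1.38 (0.74). These 3 genes rose consistently under both scalings. The aldehyde dehydrogenase Aldh3a1 rose by 1.17 and keratin 18 (Krt18) by 1.0, neither of them consistently with quantile normalization, and Cyp2g1, a defining P450, was called at 0.57 but gave 0.01 with quantile normalization. The sustentacular genes summed to 13400, 12700, 13400 and 12900 in adults and 25300, 28200, 25700 and 27600 in old rats.

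Gland genes kept more of their rise under both scalings. Of 33 genes of glands and nasal secretions with a probe, 19 were tested, 9 rose consistently and 1 fell (median 0.72; 0.63 with quantile normalization, with 7 and 1). With normexp the median was 0.55, and 5 rose and 1 fell. The secretoglobin Scgb1c1 read 11.24, 11.12, 11.23 and 11.43 in adults and 12.49, 12.79, 12.73 and 12.49 in old rats (1.18), and the water channel Aqp5 of secretory cells read 7.91, 7.77, 7.94 and 7.83 against 8.97, 9.33, 9.09 and 9.12 (1.08). The antimicrobial protein Bpifa1, the brightest over both ages but below Scgb1c1 in old rats, rose by 0.72 but by 0.28 with quantile normalization, the glycoprotein Gp2 by 1.33 and the chloride channel subunit Bsnd by 1.21. The member that fell was Aqp4, a water channel of basolateral membranes, at 3.40, 3.33, 3.70 and 3.98 against 2.15, 2.09, 2.23 and 2.33 (−1.59). The gland genes summed to 7160, 7360, 7530 and 7940 in adults and 14400, 17300, 15900 and 14800 in old rats. Of 25 ciliated cell genes with a probe, 24 were tested, 4 rose consistently and 1 fell (median 0.38; 0.15 with quantile normalization, with 1 and none; 0.20 with normexp and against the adults of slide 1). The one that rose under both was Rsph9, a radial spoke protein (1.16). Tppp3, the brightest, and the tektin Tekt4 rose by 0.98 and 1.1 (0.34 and 0.77 with quantile normalization), and Foxj1, the master regulator of motile cilia, gave 0.48 but −0.02 with quantile normalization. The ciliated cell genes summed to 2480, 2450, 3010 and 3230 against 4850, 4910, 4580 and 5050.

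**Figure D3:**
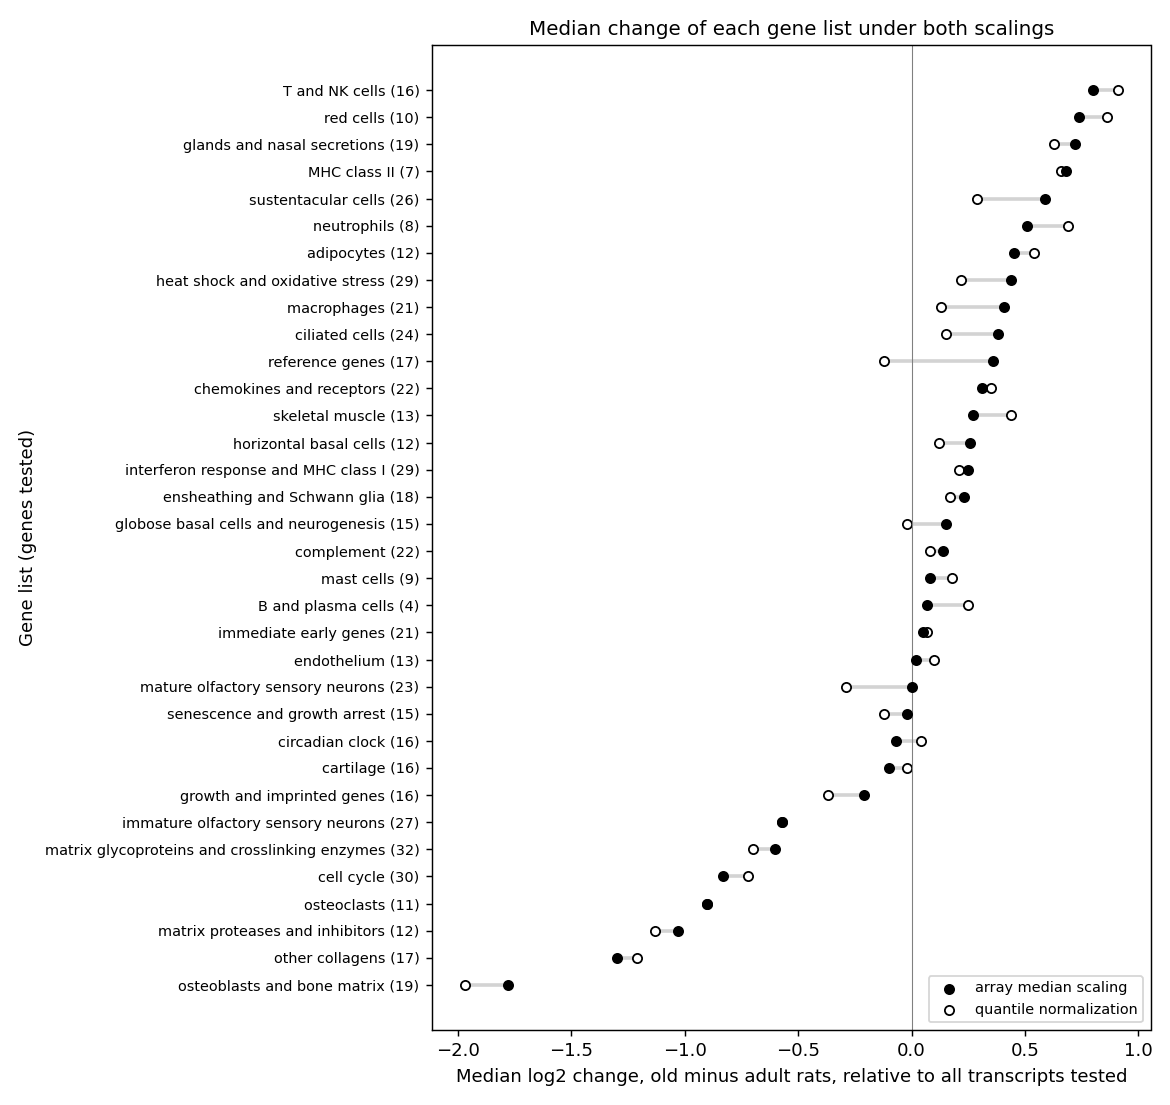
Median log2 change of each of 34 gene lists, old minus adult rats, relative to the median of all transcripts tested, under array median scaling (filled) and quantile normalization (open); the number of genes tested is in parentheses. The list of osteoblasts and bone matrix and that of other collagens lie lowest under both scalings, and the reference, globose basal and clock lists lie on opposite sides of 0 under the 2 scalings.

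Other cells of the tissue changed less uniformly. Of 22 genes of ensheathing and Schwann glia with a probe, 18 were tested, 7 rose consistently and 2 fell (median 0.23, quantile 0.17; 0.12 without adult rat 15, 0.45 and 0.07 against the adults of slides 1 and 2). The myelin protein Mag rose by 1.53 and neuropeptide Y (Npy), which ensheathing cells make, by 1.26, or by 0.95 and not consistently with quantile normalization. Fabp7, the brightest over both ages but below Npy in old rats, was not called (0.22), was called without adult rat 13 (0.40), and gave −0.10 with quantile normalization. The glial genes summed to 517, 337, 295 and 341 against 557, 490, 533 and 687. Of 24 endothelial genes with a probe, 13 were tested and 1 rose consistently, with a median of 0.02 (quantile 0.10, normexp 0.10; 0.14 and −0.09 against the adults of slides 1 and 2, −0.14 without old rat 17 and −0.09 without adult rat 15). This was Cldn5, a tight junction protein and the brightest, at 4.60, 4.46, 4.13 and 4.33 against 6.20, 5.94, 5.96 and 6.10 (1.48). The endothelial genes summed to 79.1, 82.2, 76.2 and 84.7 against 146, 115, 123 and 130.

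Most red cell genes were also higher. Of 14 with a probe, 10 were tested, 6 rose consistently and 1 fell (median 0.74; 0.86 with quantile normalization, with 4 and 1). Alas2, the erythroid enzyme that starts heme synthesis, read 5.45, 4.57, 4.53 and 5.19 in adults and 7.01, 7.68, 6.73 and 6.47 in old rats (1.86), and Rhag, a membrane protein of erythroid cells, rose by 1.71. The brightest, Hbb-b1, overlapped between the ages and was called at 0.73 (0.14 with quantile normalization), but not without rats 14, 17, 18 or 19 (0.72, 0.69, 0.63 and 0.67). The red cell genes summed to 964, 646, 551 and 690 against 1460, 1840, 1500 and 1010. The part of blood or marrow in the other changes was not tested. Of 24 skeletal muscle genes with a probe, 13 were tested, 3 rose consistently and 1 fell (median 0.27, quantile 0.44, normexp 0.16; 0.17 without adult rat 15, 0.53 and 0.07 against the adults of slides 1 and 2). Tnnc2, fast troponin C and the brightest, rose by 1.63, and the carbonic anhydrase Car3 fell by 2.23. The muscle genes summed to 53.8, 46.4, 46.8 and 46.0 against 82.5, 96.4, 108 and 90.1. Of 19 adipocyte genes with a probe, 12 were tested, 5 rose consistently and none fell (median 0.45, quantile 0.54, normexp 0.22), among them the lipid droplet protein Cidea (1.33), the triglyceride enzyme Dgat2 (1.21) and adiponectin (Adipoq, 0.74). With the authors' deposited matrix the adipocyte median was 0.29, and 4 rose consistently and none fell. The brightest, Fasn, was not called (0.19; −0.07 with quantile normalization) but was called without adult rat 16 (0.24). The adipocyte genes summed to 174, 157, 172 and 180 against 261, 251, 248 and 274.

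Cdkn2a, which encodes a cell cycle inhibitor that accumulates in senescent cells, read −0.11, 0.37, −0.07 and 0.23 in adults and 1.91, 1.85, 1.82 and 1.98 in old rats. It rose by 1.61 (SE 0.12), 3.04-fold, with an adjusted p of 6e-06 and no overlap. The rest of its list did not share a direction: of 19 genes of senescence and growth arrest with a probe, 15 were tested, 2 rose consistently and 4 fell (median −0.02, quantile −0.12, and from −0.18 to 0.02 as single rats were left out; −0.20 against the adults of slide 1). Gdf15, a stress-induced cytokine, rose by 2.0 and lamin B1 (Lmnb1) fell by 1.59. Igfbp5 fell by 1.24 by its brightest probe, while another gave −0.03. Gadd45a was the brightest over both ages, though Igfbp5 was brighter in adults, and the summed level overlapped, at 304, 319, 359 and 376 against 401, 324, 370 and 348. Of 18 growth and imprinted genes with a probe, 16 were tested, 1 rose consistently and 4 fell (median −0.21, quantile −0.37; −0.14 without adult rat 16 or old rat 20, −0.11 and −0.12 against the adults of slides 1 and 2). The heparin-binding growth factor Ptn changed by −0.96 and its relative Mdk, the brightest, by 0.68, although Mdk did not rise consistently with quantile normalization. The growth genes summed to 686, 723, 698 and 808 against 799, 785, 762 and 837.

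Of 30 heat shock and oxidative stress genes with a probe, 29 were tested, 10 rose consistently and 2 fell (median 0.44); with quantile normalization 4 rose and 5 fell (median 0.22), and with normexp 2 and 3 (0.15). The small heat shock protein Hspb1 rose by 1.17, while the plasma peroxidase Gpx3 and the chaperone Hsph1 changed by −1.64 and −1.28. The brightest, Sod1, rose by 0.86, or by 0.16 with quantile normalization. The stress genes summed to 4900, 4910, 5670 and 5100 against 8540, 8770, 8180 and 9150. Of 17 clock genes with a probe, 16 were tested, 5 rose consistently and none fell, with a median of −0.07 that turned to 0.04 with quantile normalization, 0.01 without adult rat 16, and −0.12 and 0.03 against the adults of slides 1 and 2. The clock output factors Dbp and Tef rose by 1.04 and 0.70 and the repressor Per1 by 0.65. Bhlhe41, the brightest, rose by 0.93, while another of its probes gave −0.10. The clock genes summed to 213, 207, 236 and 222 against 349, 392, 370 and 411, and the hour of dissection is not given in the sources used here. Of 25 immediate early genes with a probe, 21 were tested, and 3 rose and 3 fell consistently (median 0.05, quantile 0.07; −0.08 without adult rat 13 and 0.23 without adult rat 14). Junb and the stress gene Gadd45b rose by 1.33 and 1.39 and Egr1 fell by 1.42. Ier2 was the brightest, and the summed level was 549, 596, 641 and 594 against 816, 761, 776 and 823.

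Reference genes and ribosomal proteins showed how far scaling alone moved transcripts with bright probes. Of 17 reference genes tested, 10 were called higher and 3 rose consistently, with a median of 0.36 that turned to −0.12 with quantile normalization, where none rose and 1 fell. Hprt1 gave 0.01, −0.01 without adult rat 16 and −0.33 with quantile normalization, Gapdh 0.39 and −0.12, and Suclg1 −0.05 and −0.53. The reference genes summed to 8370, 8030, 8470 and 7920 against 12100, 12800, 11900 and 13200. Of 106 probes of cytosolic ribosomal proteins, a family chosen after values were seen, 101 were tested, 44 rose and 3 fell consistently, with a median of 0.55 that was 0.03 with quantile normalization and with normexp. Single members still stood out under both: Rpl10 read 9.30, 9.36, 9.29 and 9.38 in adults and 10.90, 11.01, 10.83 and 10.99 in old rats (1.42; 0.79 with quantile normalization), and Rps3 rose by 1.41 (0.81).

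The remaining large and the steadiest moderate changes came from genes of no single list. Lrrc27, a leucine-rich repeat protein (chr1:199167125-199167184, plus strand), read 0.50, 0.18, 0.56 and 0.32 in adults and 3.80, 3.99, 3.62 and 4.25 in old rats, and rose by 3.34 (SE 0.14), 10.1-fold, with an adjusted p of 4.48e-06. The adhesion molecule Cdh22 (chr6:134126054-134126113, plus strand) read 1.01, 0.95, 0.28 and 0.91 against 4.06, 4.15, 4.0 and 4.42 (3.19, 9.11-fold). The old rats lay close together and far from every adult for both genes. Cmahp, named on the array for the hydroxylase that makes N-glycolylneuraminic acid (chr17:47675339-47675398, minus strand), read −0.68, 0.54, 1.69 and 1.55 against 4.36, 3.06, 4.70 and 3.46 (2.94), and its adult slides differed by 1.69. Asphd2 rose by 2.42. The 4 tested probes of the Spetex-2 family on chromosome 15, chosen after values were seen apart from Spetex2b and Spetex2f (2.33 and 2.31), all rose, with a median of 2.25 (quantile 2.15); the weakest, a probe of Spetex2d, rose by 1.13, with adult slides 1.20 apart. Ncoa1, a coactivator of nuclear receptors, fell from 3.77, 3.43, 2.26 and 2.17 to −0.57, −0.65, −0.43 and −0.94 (−3.74), and its adult slides differed by 1.39.

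Among the moderate changes with the smallest p, Coq8a, a kinase-like protein of coenzyme Q synthesis, read 2.90, 2.76, 2.82 and 2.71 in adults and 4.98, 5.14, 4.83 and 5.10 in old rats (2.03, 4.09-fold). Ramp1, a subunit of the CGRP receptor, rose by 1.89, Ankrd33b by 2.24, the transcriptional coregulator Cited4 by 1.43, the ATP synthase subunit Atp5mc2 by 1.49, Urod of heme synthesis by 1.46 and Rps19l1 by 1.48. With quantile normalization these genes gave, in that order, 1.62, 2.38, 1.46, 0.90, 0.93 and 1.06. On the other side Hnrnpd, an RNA-binding protein that controls mRNA decay, read 3.66, 3.41, 3.56 and 3.52 against 1.67, 1.51, 1.58 and 1.66 (−2.12, 4.34-fold). The translational repressor Eif4ebp2 changed by −2.01, Cpeb4, which acts on poly(A) tails, by −2.08, the mitochondrial poly(A) polymerase Papd1 by −1.79, the kinase Mapk6 by −1.77, Tbc1d22b by −1.84 and the survival factor Bcl2l2 by −1.75. Tpx2, Cenpc and Smc4l1, which act in spindle assembly, at centromeres and in chromosome condensation, changed by −1.79, −1.67 and −2.30, beside the falling cell cycle genes. A gene can have probes that oppose each other: of 2738 genes with more than 1 tested probe, 529 had one that rose consistently, 882 one that fell, and 62 one of each.

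The naming rules picked further list members, and many of their calls were lost in fits that left out 1 rat, which also hold fewer rats. Calls that held without any 1 rat were those of Aldh1l1 (0.98), Mb (0.89), Scd1 (0.87), Np4 (0.80), Cxcr3 (0.97), Hpgds (0.90), Hbb (1.15), Adamts9 (−1.54) and Trib3 (−0.90), and, with smaller changes under quantile normalization, Gpx4 (0.96; 0.53), Cxcl17 (0.69; 0.56), Ifi27 (0.94; 0.58), Itgb4 (0.53; 0.22), Rpl13a (0.82; 0.17), Eef1a1 (0.70; 0.04) and Pgk1 (0.56; 0.30). The calls of 16 others were lost as single rats were left out; those that changed by at least 1.5-fold, except RT1-Aw2, which overlapped, count in the list totals above: Ccl5 (1.76) without rats 13, 14, 16, 17, 18, 19 or 20 (1.45, 1.57, 1.70, 1.72, 1.80, 1.69 and 1.83); Lyz2 (1.37) without rats 13, 14, 16, 17 or 19 (1.18, 1.36, 1.39, 1.05 and 1.26); Tnni2 (1.18) without rats 13, 17, 18, 19 or 20 (1.05, 1.17, 1.17, 1.09 and 1.30); RT1-Aw2 (0.79) without rats 13, 14, 16, 17, 19 or 20 (0.65, 0.73, 0.73, 0.73, 0.70 and 0.84); RT1-S3 (0.63) without rats 14 or 20 (0.57 and 0.63); Ctss (0.54) without rats 14, 15, 16, 17 or 20 (0.50, 0.56, 0.47, 0.51 and 0.40); Vegfa (0.40) without rats 13, 14, 15, 17, 18 or 19 (0.35, 0.43, 0.36, 0.36, 0.39 and 0.27); Hdc (0.34) without rats 14 or 17 (0.31 and 0.28); Emcn (0.25) without rats 13, 14, 16, 17, 18, 19 or 20 (0.26, 0.25, 0.20, 0.28, 0.30, 0.23 and 0.19); Prtn3 (0.19) without rats 13, 14, 16, 17, 18 or 20 (0.20, 0.20, 0.16, 0.14, 0.15 and 0.22); Dcstamp (−1.96) without rats 14 or 20 (−1.82 and −1.74); Nr4a3 (−1.81) without rats 14, 15, 16, 17 or 19 (−1.70, −1.68, −1.78, −1.97 and −1.81); Dnah5 (−1.18) without rats 14, 15, 16, 17, 18, 19 or 20 (−1.28, −1.15, −0.92, −1.31, −1.16, −1.18 and −1.06); Igfbp4 (−1.16) without rats 14, 18 or 20 (−1.11, −1.06 and −1.09); Plagl1 (−0.97) without rats 14, 15, 16, 18, 19 or 20 (−0.97, −1.01, −0.90, −0.89, −0.83 and −1.01); Crmp1 (−0.87) without rats 14, 17 or 19 (−0.84, −0.87 and −0.81). For Ccl5 the adult slides differed by 1.60; Dnah5 is the ciliated cell gene that fell, and Nr4a3 had the largest fall among the immediate early genes.

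Some transcripts were expressed at a single age, a description with no test because detection chose them. In adults and counted as above background on no old array there were 440, of which 216 have a gene symbol and 9 are OR genes; in old rats and counted so on no adult array there were 226, of which 90 have a symbol and 7 are OR genes. Of these 226, 30 had signal well above background on some adult array but failed another spot flag there; none of the 440 did on old arrays. The old arrays were dimmer, and a bound of at least 2-fold was reached by 116 of the 440 and by 102 of the 226. Folds here are lower bounds: the level at the expressing age is divided by a ceiling for the other age, which is, on each array, either the dimmest signal that is well above background or the signal of the probe itself, whichever is brighter. Prss35, a serine protease homologue, read 0.66, 1.66, 1.1 and 1.95 in adults and −2.06, −3.79, −2.88 and −3.06 in old rats, at least 11.2-fold lower in old rats, and Panx3, a pannexin of bone and cartilage, was at least 9.58-fold lower. They were followed by Tmem263 (at least 7.96-fold), Nars1 (6.17) and Orc4 (5.69). In the other direction Scn11a, a sodium channel of sensory neurons, read 2.07, 1.64, 1.80 and 2.31 in old rats and was at least 20.0-fold higher there, and Slc22a3, an organic cation transporter, was at least 11.6-fold higher. Zan, Gprin2 and the antimicrobial lectin Reg3g followed (at least 4.19-fold, 3.95-fold and 3.83-fold).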

How the data were processed

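RNA of both sides of the olfactory epithelium of 4 adult and 4 old rats was labelled with Cy3 by the authors and hybridised to one-colour Agilent 44K arrays, 16 arrays in all; only RNA of high integrity was used. The deposited scanner files hold spot intensity values that Agilent's Feature Extraction had background-subtracted, per the file headers with release 9.5.1.1 for adult and 9.5.3.1 for old arrays. The deposited matrix holds a ratio for each probe, which the authors made by setting negative values to 0.01, dividing by the array median and then by the median of the gene over arrays. For 99.96% of the 22892 probes above background on all 16 arrays, matrix and scanner values differed by 1 constant per probe (log2 SD under 0.01), so the scale is linear and centred per probe; the methods take each centre over the arrays of the study. The matrix medians were 0.742, 0.723, 0.739, 0.731, 0.779, 0.762, 0.760 and 0.749 for arrays 13A, 13B, 14A, 14B, 15A, 15B, 16A and 16B, and 0.863, 0.864, 0.879, 0.901, 0.857, 0.875, 0.909 and 0.896 for 17A, 17B, 18A, 18B, 19A, 19B, 20A and 20B. Precision is limited by how many arrays there are.

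Control spots were left out, spots of a probe were averaged (263 probes are repeated), and 890 probe values on 35 arrays were left out as outlier spots. Processed intensities were divided by the array median, floored at 0.01 and log2 transformed, and the 2 arrays of a rat were averaged. A probe counted as above background on an array where its spot was positive and significant, well above background, even and not saturated; 26 probes were saturated on at least 1 adult array and none on an old array, and 15 were left out of the test for that reason. Of 41012 probes, 24824 carry a RefSeq accession, 10802 were named through RefSeq and 2677 through a synonym, and 20223 have a gene symbol. Coordinates are those of the files, on rn3.

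Old and adult rats were compared with limma 3.58.1 in R 4.3.3 (lmFit and eBayes) over the transcripts expressed at both ages, with Benjamini-Hochberg adjustment at 0.01; the script was tested on simulated data. OR counts per rat were compared by an exact two-sided permutation test (python 3.11.15). Genes were named by rule: the 10 largest consistent changes in each direction; the 10 moderate changes with the smallest p in each direction; of each list the brightest gene and up to 4 called members with the largest changes; Hprt1, Gapdh, Gnal and Suclg1; and the 5 largest bounds for each age. A gene of a list is represented by its probe with the highest mean level. A few genes that these rules pick are not reported here. Further list members, defining markers and the named families were taken beyond this rule. The members and the 34 lists (865 genes, 781 with a probe) were chosen with earlier results of these data known. Alternatives were other scalings (75th percentile, common transcripts, quantile), normexp (offset 50) with quantile normalization, the matrix, a fit with the litters, other filters, A or B arrays alone, rat, slide or scan day as a random block, intensities averaged before the log2, the methods' t-test, each rat left out, and, chosen after seeing the data, the adults of either slide alone.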

Additional observations from a re-analysis of the deposited data

Results flagged for a closer look

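Among 392 groups of 4 rats, 20 held a rat that stood apart from the other 3, and chance gives about 1 in 20 groups. The value after each is the gap to the nearest rat as a share of the group's range, and levels are log2 of intensity over the array median. Adult rat 15 stood apart in 7 of them, 5 in immune genes: C1qb (0.932), RT1-S3 (0.924; 8.49 against 7.65 to 7.71), Cd8b (0.907), Cd3d (0.903; 2.84 against 1.02 to 1.19) and C1qc (0.862), each higher than in the other adults, besides Rrm2 (0.888, higher) and Cdh22 (0.86, lower, 0.28 against 0.91 to 1.01). Old rat 20 was apart and highest in Prc1 (0.894), Cidea (0.861), Spetex2b (0.851) and Asphd2 (0.835). Adult rat 16 was highest in Eef1a1 (0.875) and Tpsb2 (0.86) and lowest in the number of OR genes above background (0.854; 631 against 710 to 723.5). Old rat 17 was highest in Gdf15 (0.885; 3.91 against 3.14 to 3.23) and lowest in Suclg1 (0.877). Adult rat 14 was highest in Spetex2f (0.895) and lowest in Gadd45a (0.847). Old rat 18 was lowest in Thbs2 (0.883), and old rat 19 in Slc22a3 (0.831).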

How the results depend on the processing

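The direction and call of most results held under the alternatives. Of the values of named genes, 4486 kept direction and call, 403 kept the direction and lost the call, 21 gained a call and 23, of 10 genes, changed sign. Of the values of gene lists, 2482 moved by less than the spread between rats and 272 by more, and of the counts 206 stayed within 1.5 times and 12 did not. Signal over background limits the dim transcripts: levels near background are compressed by the offset of normexp, and large folds there depend on the filter.

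With normexp, 8 transcripts were called at least 5-fold higher and 27 at least 5-fold lower, and the consistent moderate changes numbered 2061 higher and 2303 lower; its offset shrinks folds by construction. Without a filter the 5-fold counts were 460 higher and 440 lower, with transcripts expressed at either age 161 and 250, and with those above background on all 16 arrays 20 were higher; here the transcripts tested differ. Against the adults of slide 2 alone, chosen after seeing the data, 99 were 5-fold lower; the cause was not tested. Requiring all 8 arrays left 148 transcripts expressed in adults alone and 66 in old rats alone, by construction fewer. The counts of calls with the rat, slide and scan day as random block were 12847, 12376 and 9966, and the methods' t-test called 9709 after Benjamini-Hochberg and 15591 at an unadjusted p under 0.05. Of the named genes, 11 lost the call with the rat as block, 9 with the slide and 28 with the scan day, while 1 gained it with the rat. No paired analysis was possible because adult and old rats share no replicate number.

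Signs changed in bright genes with quantile normalization and with normexp: Fabp7 (−0.10 and −0.33), Laptm5 (−0.06 and −0.23), Fasn (−0.07 and −0.01), Gnb1 (−0.35 and −0.48), Hes6 (−0.07 and −0.04), Hprt1 (−0.33 and −0.33), Gnal (−0.47 and −0.47) and, with quantile normalization alone, Gapdh (−0.12). Hprt1 also gave −0.03 with A arrays alone and −0.02 against the adults of slide 2, and from −0.01 to 0.04 as single rats were left out. Gnal gave −0.08 against the adults of slide 2 and from −0.05 to 0.10 with single rats left out. Against the adults of slide 1 Fcrla gave −0.08 and Cd74 −0.05. The cause was not tested. As single rats were left out, the transcripts called ranged from 9670 to 11113, those 5-fold higher from 29 to 38 and 5-fold lower from 45 to 75, the moderate changes from 3419 to 3709 higher and from 3010 to 3544 lower, the transcripts of adults alone from 321 to 544 and of old rats alone from 166 to 299, and the difference in OR genes from 8.83 to 40.8.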
